A study of Arabidopsis thaliana with 32 samples.

Results

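The genes described here are the 4 nuclear genes for the small subunit of Rubisco (RBCS1A, AT1G67090; RBCS1B, AT5G38430; RBCS2B, AT5G38420; RBCS3B, AT5G38410) and the gene for Rubisco activase (RCA, AT2G39730), 5 of the 19685 genes in the expression table. They were taken by name, with no threshold on a measured value, and all 5 passed the filter on low values. They were followed in poly(A) RNA of whole Arabidopsis seedlings of the Columbia ecotype, 40 seedlings per sample, grown for 3 days in the dark and collected then, or after a further 1.5 h or 4 h of simulated white light at 100 µmol m−2 s−1. The 5 genotypes were VP16 (35S:FLASH-HY5-VP16, the transcription factor HY5 with an activation domain), SRDX (35S:FLASH-HY5-SRDX, HY5 with a repression domain), OX (35S:FLASH-HY5, HY5 with neither), Col (Col-0, wild type) and hy5 (hy5/hy5, the mutant). The VP16, SRDX and OX seedlings were also hy5/hy5, so their HY5 came from the transgene, under the constitutive 35S promoter. All seedlings, controls included, had received 1 h of white light to induce germination before the dark. Each dark and 1.5 h group of VP16, OX, Col and hy5 was 3 libraries, each of the 3 SRDX groups was 2, and the 4 h group of hy5 was 2, in all 32 libraries in 12 groups. How many independent transgenic lines were used, and whether replicates came from separate plantings, is not given in the sources used here. A p-value here thus reflects the spread among libraries within groups, which may be technical. In the main fit that spread was taken over all 12 groups together, and not from the compared groups alone.

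Rubisco fixes carbon dioxide in the chloroplast. Its large subunit, rbcL, is encoded in the plastid genome, and its small subunit by the nuclear RBCS family, so the enzyme needs products of both genomes. RCA is a chloroplast ATPase that frees Rubisco active sites of tightly bound sugar phosphates. RBCS and RCA RNA is long known to be low in etiolated seedlings and to rise in light, and HY5, a bZIP transcription factor that accumulates in light, binds the G-box of light-regulated promoters, a site first studied in RBCS1A.

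The libraries held 7499581 to 21420680 reads over the genes of the table, so 1 read corresponds to between 0.0457 and 0.131 CPM (the authors' unit, reads scaled to a common library size), and even RBCS1B, the least abundant of the 5 genes, rested on at least 307 reads in every library. HY5 itself checked the labels. Its level was 1946 to 2619 CPM over the VP16 libraries, 760 to 1082 CPM over SRDX and 8198 to 16907 CPM over OX, against 19.4 to 85.4 CPM in hy5. In Col it averaged 216 ± 14.2 CPM at 1.5 h, against 25.1 ± 0.0243 CPM in hy5 (SD, n = 3 each), while in the dark Col had 24.6 ± 4.68 CPM and hy5 21.7 ± 2.52 CPM. HY5 RNA thus separated Col from hy5 in the light and not in the dark, and the 3 transgenic lines differed in HY5 RNA as well as in the domain they carried.

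The sequences of the RBCS genes bear on how well their levels can be told apart. In the TAIR10.1 annotation of RefSeq, RBCS1B (chr5:15383167-15385320), RBCS2B (chr5:15380907-15382071) and RBCS3B (chr5:15376988-15378642) lie side by side on the minus strand of chromosome 5. RBCS1A (chr1:25048158-25049667) and RCA (chr2:16570746-16573692) stand alone on chromosomes 1 and 2, also on the minus strand. Each RBCS gene has 3 coding exons and a coding length of 543 to 561 bases, and RCA has 7 coding exons and 1425 bases. RBCS1A matched the chromosome 5 genes at 90.4% to 90.6% of aligned coding bases, and those genes matched each other at 96.7% to 97.3%. Bases 91 to 150 of the coding sequence are shown, with bases that differ from RBCS1A in capitals. This ungapped 60-base window was chosen because the chromosome 5 genes differ most from each other there. Over their whole aligned coding sequence these genes differ at only 15 to 18 bases, so the stretch overstates how easily they are told apart.
RBCS1A: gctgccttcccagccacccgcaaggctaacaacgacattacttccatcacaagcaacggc
RBCS1B: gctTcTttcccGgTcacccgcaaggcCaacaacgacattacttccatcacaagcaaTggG
RBCS2B: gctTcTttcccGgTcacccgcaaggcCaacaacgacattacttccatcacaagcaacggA
RBCS3B: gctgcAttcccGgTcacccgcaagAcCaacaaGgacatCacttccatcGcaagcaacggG
Within this stretch RBCS1B differed from RBCS1A at 7 bases, RBCS2B at 6 and RBCS3B at 9. Of all 50-base windows of the coding sequence, 51.3% in RBCS1B, 38% in RBCS2B and 40.6% in RBCS3B occurred unchanged in another RBCS gene, against 3.64% in RBCS1A. How reads that fit several places were counted is not given in the sources used here, so values of single chromosome 5 genes are uncertain to that extent, and their sum is given where it changes a result.

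HY5 is known to bind the G-box (CACGTG, which reads the same on both strands), so the 500 bases before each start codon were searched for it. It was present in 4 of the 5 genes, RBCS1A, RBCS2B, RBCS3B and RCA. In the same window, 9.34% of 27438 annotated genes had it, and 10.7% of the 19128 of them in the expression table. RBCS2B and RBCS3B are neighbours with much alike sequences, so their matches may not be independent. RBCS1B had no match, so its pair of I-boxes (GATAAG, another element of light-regulated promoters) is shown in its place. Each line gives 30 bases of TAIR10.1 on the gene's strand, with the motif in capitals.
RBCS1A: ggaattatcttcCACGTGgcattattccag
RBCS2B: ggagttttctgcCACGTGatcttatcctag
RBCS3B: ggagttttctgcCACGTGgccttatcctag
RCA: ataaacatattcCACGTGgaccaatcaaaa
RBCS1B: tcacaaaagaaaGATAAGATAAGggtgtca
These windows are, in the same order, chr1:25049491-25049520, chr5:15382177-15382206, chr5:15378506-15378535, chr2:16573579-16573608 and chr5:15385308-15385337, all on the minus strand. Counted from the start codon, the first base of the G-box is at -259 in RBCS1A, -216 in RBCS2B, -217 in RBCS3B and -251 in RCA. RBCS1A has 2 annotated transcript starts, 175 and 418 bases before the start codon, so its G-box is upstream of one and inside the 5′ untranslated region of the other, and the same holds for RBCS3B and RCA. The I-box, searched on both strands, was found in all 5 genes, against 23.5% of all genes, with 3 matches each in RBCS2B and RBCS3B, 2 in RBCS1A, 1 in RCA, and the 2 in RBCS1B sharing a base. The GT-1 box (GGTTAA, both strands), a further light element, had 1 match each in RBCS1A, RBCS1B and RBCS2B and none in RBCS3B and RCA, against 24.5% of all genes. The G-box contains the core ACGT, which 62.6% of all genes have in this window, RBCS1B among them. A match describes the letters of the window and not a bound site.

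**Figure D1:**
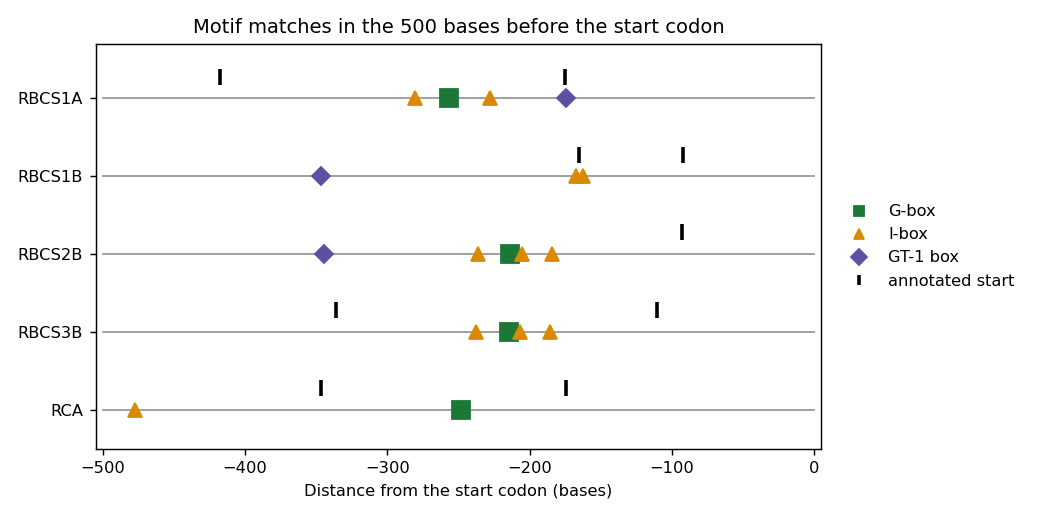
Position of G-box, I-box and GT-1 box matches (symbols) and of annotated transcript starts (black ticks) in the 500 bases before the start codon of the 5 genes, in bases. The G-box starts between -259 and -216 in 4 genes, and RBCS1B has none.

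RBCS1A was the most abundant of the 5 genes in every group. Per kb of coding length, its group means were 8571 to 15530 CPM in the dark, 11740 to 17970 CPM at 1.5 h and 13810 to 14410 CPM at 4 h. RBCS3B followed with 1719 to 3217, then 3430 to 5421, then 6301 to 7962 CPM per kb, and RBCS2B with 1691 to 2876, then 1701 to 2705, then 2725 to 3739 CPM per kb. RCA had 415 to 830 CPM per kb in the dark, 1452 to 2719 at 1.5 h and 3644 to 5118 at 4 h. RBCS1B was lowest at each time, with 63 to 148, 592 to 904 and 896 to 1072 CPM per kb. Ranked over the 12 groups, the groups of RBCS1B split cleanly into dark below and light above, the only place in its order where neighbouring groups did not overlap. RCA had 5 such steps among its 11 pairs of neighbours, and each RBCS gene had 1. For RBCS1A that step lay between SRDX and OX at 1.5 h, for RBCS2B between hy5 in the dark and hy5 at 4 h, and for RBCS3B between SRDX and hy5 at 4 h. Groups were sorted by mean and only neighbours compared, so overlap was likely and does not show that groups are alike. A step need not split the whole order. VP16 in the dark, ranked above the RBCS1A step, had a library at 6481 CPM, below the 7316 CPM reached in SRDX at 1.5 h. RBCS1A was highest in VP16 at both times, and its mean in VP16 in the dark, 8433 ± 1835 CPM, stood above its mean in hy5 at 1.5 h, 7647 ± 425 CPM (SD, n = 3 each), with overlapping libraries.

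**Figure D2:**
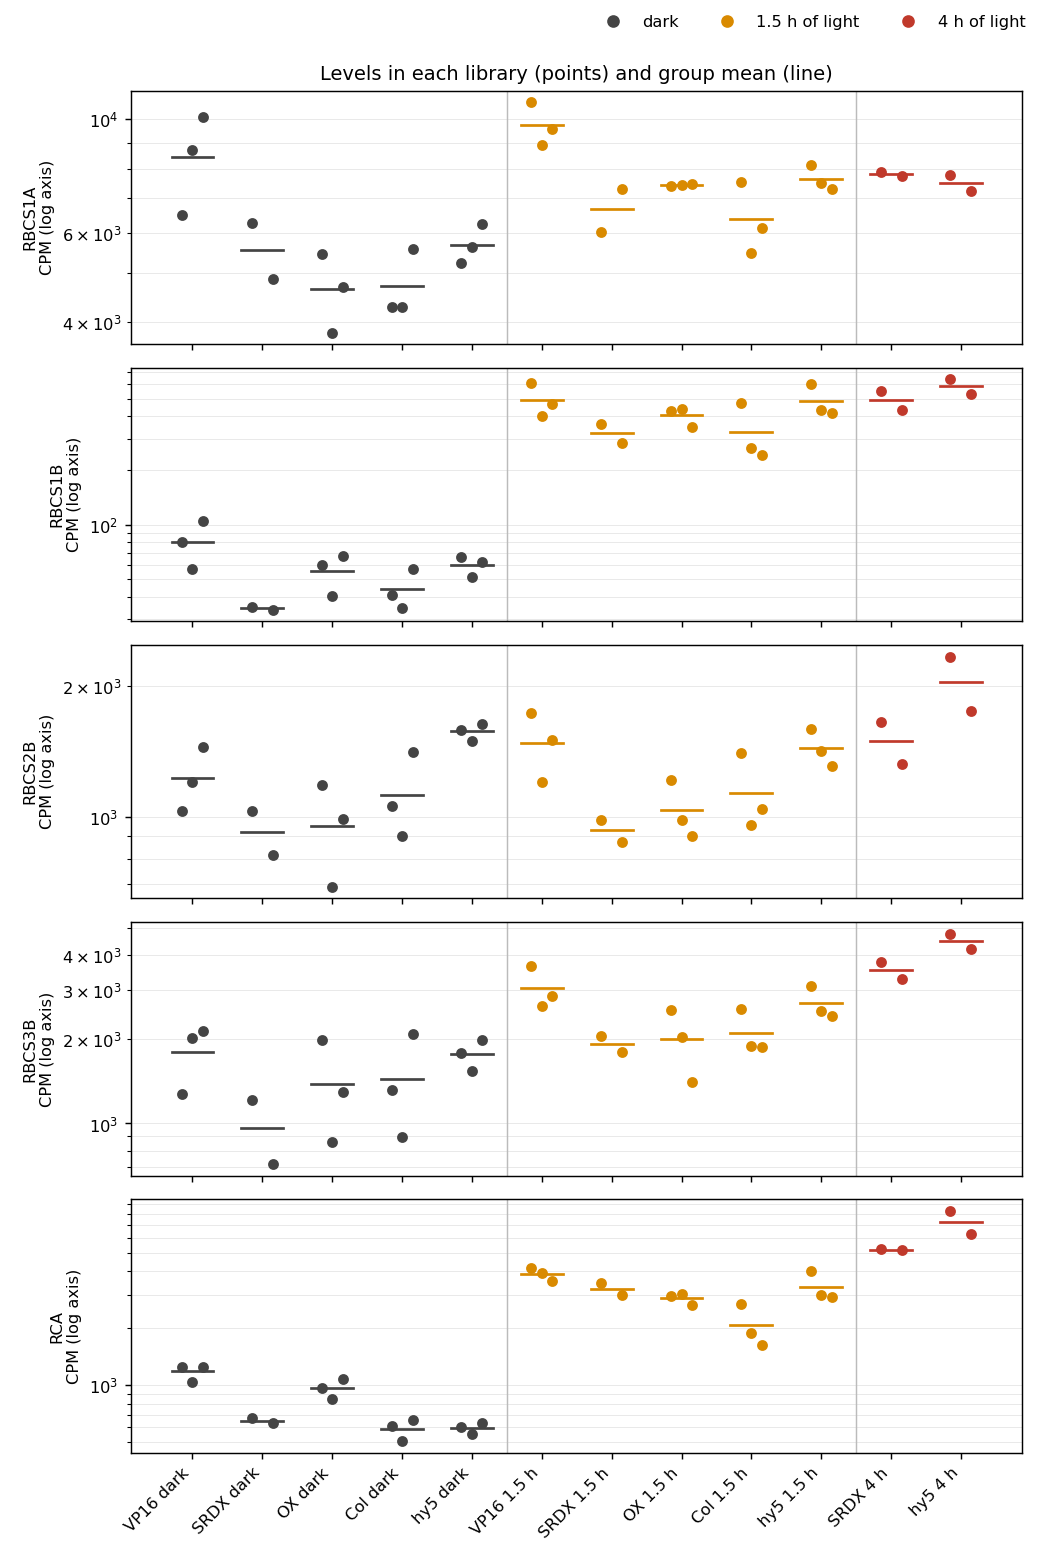
Level of each gene in each of the 32 libraries (points; CPM on a log axis) and the group mean (line), in the dark, after 1.5 h and after 4 h of light. RBCS1B and RCA are higher in every light library than in every dark library, whereas the dark and light libraries of RBCS1A and RBCS2B overlap.

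The rise within 1.5 h of light passed the limma test in all 5 genotypes for RBCS1B and RCA. It passed in VP16 and SRDX for RBCS3B, in OX for RBCS1A and in none for RBCS2B. The means of RBCS3B and RBCS1A were higher at 1.5 h in every genotype. For no RBCS gene was the light response of a line called different from that of hy5. RBCS1B was 6.12 to 9.38 times as high at 1.5 h as in the dark, and RCA 2.98 to 5.56 times. In the limma fit over all genes (call at a Benjamini-Hochberg adjusted p below 0.05), 3 of the 5 genes were called higher in VP16, where 22.4% of all genes were, 3 in SRDX (background 13.9%), 3 in OX (23.6%), 2 in Col (18%) and 2 in hy5 (16.4%). None of the 5 was called lower in any genotype. Genes called in either direction numbered 8772 of 19685 in VP16, 5231 in SRDX, 9090 in OX, 7051 in Col and 6308 in hy5. Many genes were thus called lower, and with only 5 genes, 0 called lower says little.

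RBCS1B rose from the lowest dark level of the 5 genes. In VP16 it stood at 613, 399 and 469 CPM at 1.5 h, against 79.8, 57.2 and 105 CPM in the dark. SRDX had 364 and 283 CPM at 1.5 h, against 35.1 and 33.9 CPM in the dark, and OX had 427, 437 and 348 CPM, against 60.2, 40.4 and 66.8 CPM. Every light library was above every dark one, in these lines and in those without a transgene. Col had 472, 267 and 243 CPM at 1.5 h, against 41.0, 34.7 and 57.3 CPM in the dark, and hy5 had 602, 435 and 419 CPM, against 66.7, 51.6 and 62.6 CPM. The log2 differences were 2.62 ± 0.23 in VP16, 3.18 ± 0.28 in SRDX, 2.86 ± 0.23 in OX, 2.82 ± 0.23 in Col and 2.98 ± 0.23 in hy5 (± SE of the fit), with limma adjusted p-values of 7.66e-11, 2.72e-10, 1.01e-11, 1.78e-11 and 7.5e-12. RBCS1B was a small part of the chromosome 5 cluster: summed with RBCS2B and RBCS3B, the rise was 0.43 to 0.75 on the log2 scale and was called in VP16 only (0.70 ± 0.25, adjusted p = 0.0213).

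RCA rose by less than RBCS1B in each genotype, but from a higher level. Its libraries had 4152, 3936 and 3536 CPM at 1.5 h in VP16, against 1255, 1048 and 1247 CPM in the dark. In OX they had 2964, 3026 and 2638 CPM, against 969.7, 846 and 1077 CPM. In both lines the dark level was already raised, which sets them apart from the other 3 genotypes. SRDX had 3475 and 3003 CPM at 1.5 h, against 671 and 634 CPM in the dark, and Col had 2685, 1885 and 1636 CPM, against 612, 507 and 654 CPM. The hy5 libraries had 4014, 2998 and 2918 CPM at 1.5 h, against 604, 552 and 630.1 CPM in the dark. Light and dark libraries did not overlap in any genotype. The log2 differences were 1.71 ± 0.16 in VP16, 2.31 ± 0.20 in SRDX, 1.58 ± 0.16 in OX, 1.78 ± 0.16 in Col and 2.46 ± 0.16 in hy5, with limma adjusted p-values between 2.14e-13 and 1.77e-09.

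The other small subunit genes responded less. RBCS3B was 1.45 to 2 times as high at 1.5 h as in the dark and was called in VP16 and SRDX. VP16 had 3655, 2621 and 2847 CPM of RBCS3B at 1.5 h, against 1269.8, 2011 and 2134 CPM in the dark, a log2 difference of 0.77 ± 0.28 (limma adjusted p = 0.0232), and all light libraries were above all dark ones. SRDX had 2053 and 1796 CPM, against 1212 and 716 CPM, a log2 difference of 1.04 ± 0.34 (adjusted p = 0.0215), again without overlap. These calls rested on single libraries: that of VP16 was lost without dark replicate 1 (adjusted p = 0.158) or 1.5 h replicate 1 (0.107), and that of SRDX without dark replicate 2 (0.293), 1.5 h replicate 1 (0.134) or 1.5 h replicate 2 (0.0572). The SRDX value was also lost when the chromosome 5 genes were summed (0.75, adjusted p = 0.0659). In hy5 the same gene had 3098, 2529.6 and 2423 CPM at 1.5 h, against 1789, 1534 and 1979 CPM in the dark, without overlap and with an adjusted p of 0.0999, which was 0.00649 in a fit of these groups only. The difference passed in Col without dark replicate 3 (adjusted p = 0.0113) and in OX without dark replicate 1 (0.0135) or 1.5 h replicate 3 (0.031).

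RBCS1A, the dominant gene, was 1.16 to 1.6 times as high at 1.5 h and was called in OX alone. OX had 7391, 7421 and 7481 CPM at 1.5 h, against 5444, 3821 and 4697 CPM in the dark, a log2 difference of 0.69 ± 0.19 (limma adjusted p = 0.00412) with no overlap. In hy5 it had 8127, 7496 and 7318 CPM at 1.5 h, against 5219, 5610.3 and 6224 CPM in the dark, also without overlap, and its log2 difference of 0.43 ± 0.19 did not pass the test (adjusted p = 0.0931). Col gave the same difference, 0.43 ± 0.19 (adjusted p = 0.0827), from 7538, 5468 and 6120.0 CPM at 1.5 h, against 4291, 4290.0 and 5567 CPM in the dark, which overlap. The edgeR and DESeq2 tests on reads recovered from the table called both Col (adjusted p = 0.026 and 0.00708) and hy5 (0.0322 and 0.0107), and limma called Col without dark replicate 3 (0.0445). RBCS2B was 0.916 to 1.2 times as high at 1.5 h over the 5 genotypes. In hy5 it had 1589, 1418 and 1308 CPM at 1.5 h, against 1583, 1494 and 1633 CPM in the dark, and dark and light libraries overlapped in every genotype.

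**Figure D3:**
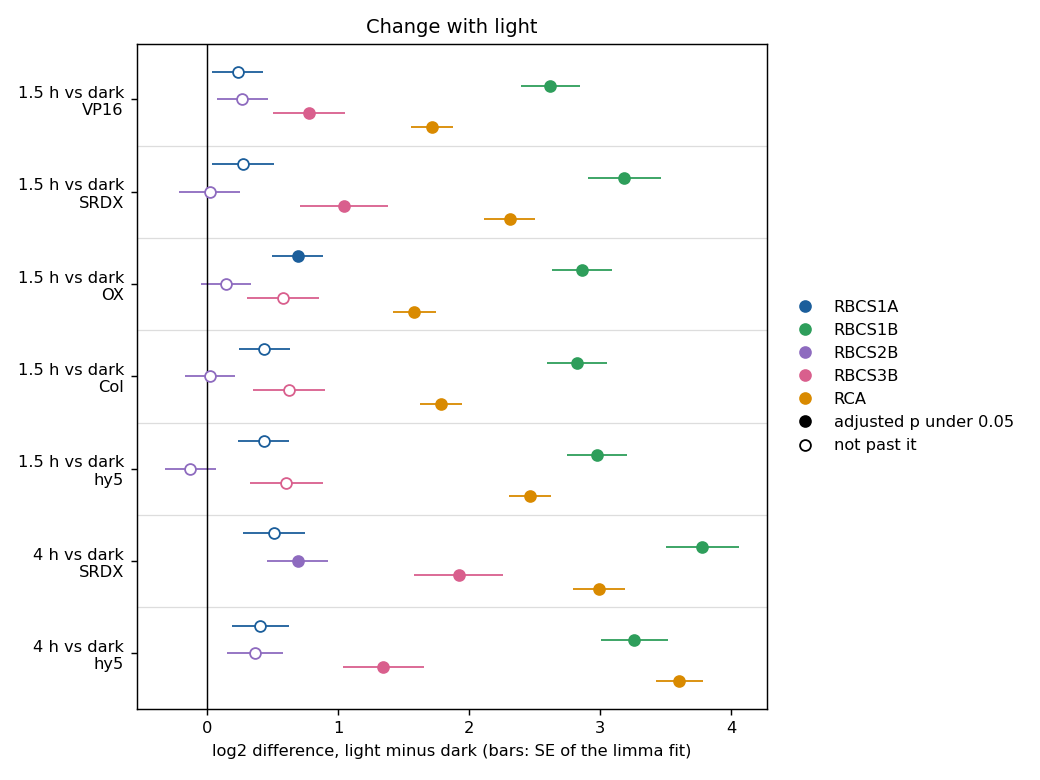
Difference between light and dark on the log2(CPM + 1) scale for the 5 genes in each genotype at 1.5 h, and in SRDX and hy5 at 4 h (points, with the SE of the limma fit; filled points passed an adjusted p of 0.05). RBCS1B and RCA lie between 1.58 and 3.78 in every comparison, and RBCS2B lies between -0.13 and 0.69.

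The unequal responses changed the make-up of the RBCS pool. Summed over the 4 genes, RBCS made up 0.985% to 1.48% of the CPM scale at 1.5 h, against 0.704% to 1.15% in the dark. The rise of this sum was called in OX only (log2 difference 0.65 ± 0.23, limma adjusted p = 0.0212). The adjusted p was 0.199 in VP16, 0.314 in SRDX, 0.135 in Col and 0.163 in hy5. RBCS1B supplied 3.23% to 3.93% of that pool at 1.5 h, against 0.470% to 0.796% in the dark, and RBCS2B supplied 9.47% to 11.7%, against 10.7% to 17.3%. RBCS1A held 62.5% to 68.6% at 1.5 h, against 62.6% to 74.5% in the dark. The ratios of each gene to RBCS1A were then tested over the 28 dark and 1.5 h libraries with a two-sided exact permutation test that exchanged dark and light labels within genotypes, a test added after the levels were seen. The log2 ratio of RBCS1B to RBCS1A was 2.51 higher in light than in the dark, averaged over genotypes (exact permutation p = 2.1e-06, the smallest these 960000 arrangements allow; 4.2e-06 adjusted over the 4 ratios), and was higher in 5 of 5 genotypes. That of RCA to RBCS1A was 1.56 higher (the same p-values), also in 5 of 5. For RBCS2B the log2 ratio to RBCS1A was -0.35, lower in light in 4 of 5 genotypes and 0.04 higher in VP16 (exact permutation p = 0.00012, adjusted 0.00016). For RBCS3B it was 0.31, higher in light in 4 of 5 genotypes and lower in OX (exact permutation p = 0.019, adjusted 0.019), and this p was 0.051 without OX 1.5 h replicate 1.

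RCA, RBCS1B and RBCS3B were above their dark levels at 4 h in both genotypes measured, SRDX and hy5. RCA stood at 5226 and 5160.4 CPM in SRDX and at 8317 and 6269.8 CPM in hy5, 7.96 and 12.3 times the dark means (log2 differences of 2.99 ± 0.20 and 3.60 ± 0.18, limma adjusted p-values of 4.82e-13 and 2.63e-16). RBCS1B was 14.2 times its dark mean in SRDX and 9.71 times in hy5 (3.78 ± 0.28 and 3.26 ± 0.26, adjusted p-values of 5.33e-12 and 6.75e-12). RBCS3B had 3782 and 3288 CPM in SRDX and 4755 and 4179 CPM in hy5, log2 differences from the dark of 1.92 ± 0.34 and 1.34 ± 0.31 (adjusted p-values of 2.9e-05 and 0.00058). Of the 5 genes, 4 were called higher than in the dark in SRDX, where 23.1% of all genes were, and 3 in hy5 (background 24.5%). RBCS2B was the fourth in SRDX, with 1652 and 1324 CPM at 4 h, against 1031 and 815 CPM in the dark (0.69 ± 0.24, adjusted p = 0.0172), a call lost without SRDX dark replicate 2 (0.157) or 4 h replicate 1 (0.155). RBCS1A was 1.41 times its dark mean in SRDX and 1.32 times in hy5, without overlap. Limma called neither (adjusted p = 0.0815 and 0.124), while edgeR (0.0328) and DESeq2 (0.0112) called RBCS1A in SRDX.

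Between 1.5 h and 4 h, RCA was the one gene called in both genotypes. In hy5 its mean was 2.2 times as high at 4 h as at 1.5 h (log2 difference 1.14 ± 0.18, limma adjusted p = 2.18e-05), where 1 of the 5 genes and 13% of all genes were called higher. In SRDX it was 1.6 times as high (0.69 ± 0.20, adjusted p = 0.0123), where RCA and RBCS2B were called and 10.8% of all genes were. Both SRDX calls depended on single libraries. That of RCA was lost without SRDX 1.5 h replicate 2 (adjusted p = 0.129), 4 h replicate 1 (0.0667) or 4 h replicate 2 (0.0627), and that of RBCS2B (0.67 ± 0.24, adjusted p = 0.0375) without any of the 4 libraries (0.0573 to 0.257). The sum of the chromosome 5 genes was not called there either (0.79, adjusted p = 0.0553). RBCS1A had 7898 and 7754 CPM at 4 h in SRDX, above its 6022 and 7316 CPM at 1.5 h but not called (1.17 times, adjusted p = 0.514). In hy5 it had 7766 and 7233 CPM at 4 h, which overlap its 1.5 h libraries. By 4 h RBCS1A supplied 58.8% of the RBCS pool in SRDX and 51.5% in hy5, and RBCS3B 26.5% and 30.6%. RCA CPM over summed RBCS CPM, which compares times and not molecule numbers because it is not scaled by length, was 0.390 in SRDX and 0.497 in hy5 at 4 h, after 0.331 and 0.269 at 1.5 h and 0.0887 and 0.0656 in the dark.

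**Figure D4:**
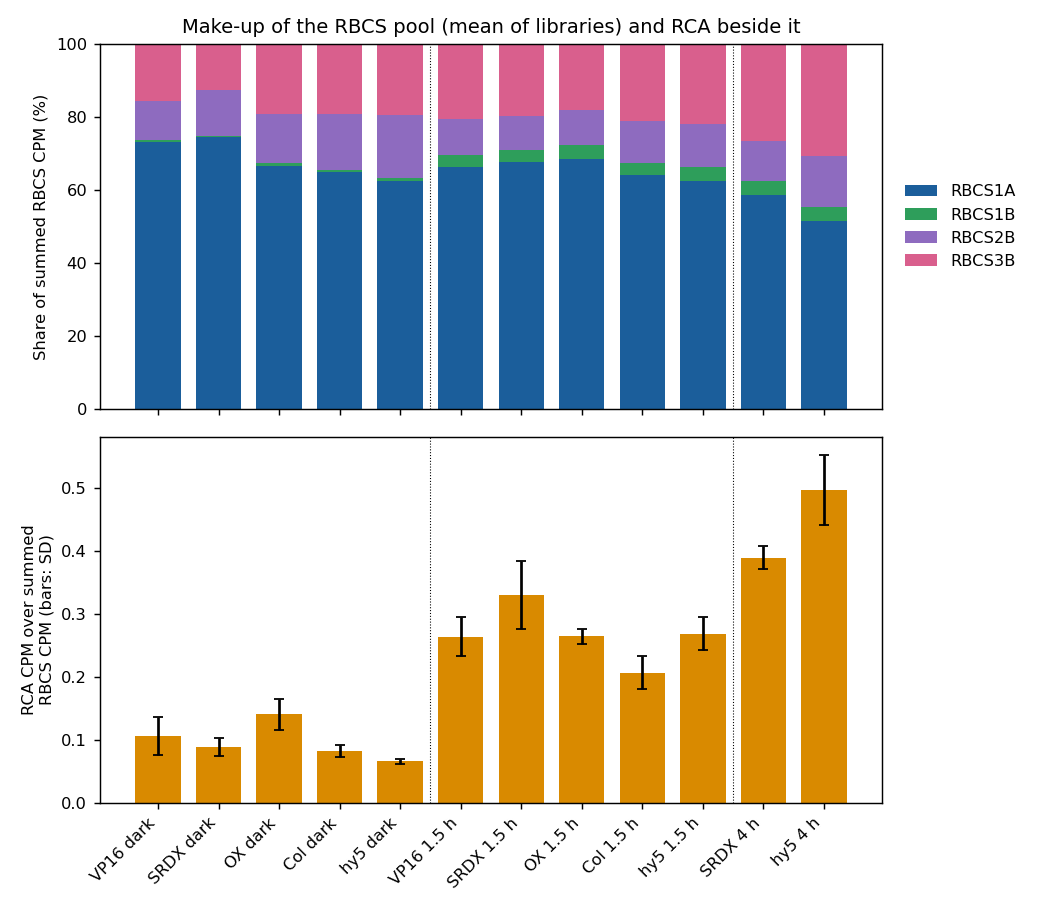
Upper plot: share of summed RBCS CPM supplied by each small subunit gene in each group (mean of libraries, in %). Lower plot: RCA CPM divided by summed RBCS CPM (mean, bars show the SD). RBCS1A supplies 74.5% of the pool in SRDX in the dark and 51.5% in hy5 at 4 h, and the RCA ratio is 0.0656 in hy5 in the dark and 0.497 in hy5 at 4 h.

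The series sets each line against hy5 at the same light. In the dark, RCA was higher in VP16 and OX. It was 1.99 times as high in VP16 as in hy5 (log2 difference 0.99 ± 0.16, limma adjusted p = 3.35e-05) and 1.62 times as high in OX (0.69 ± 0.16, adjusted p = 0.00408), with every transgenic library above every hy5 library. SRDX had 671 and 634 CPM of RCA, against 604, 552 and 630.1 CPM in hy5, just above but not called (adjusted p = 0.692), and Col had 612, 507 and 654 CPM, which overlap those of hy5 (adjusted p = 0.98). Of the 5 genes, 2 were called higher in VP16 than in hy5 in the dark, where 11.1% of all genes were. In OX 1 was called higher (background 6.72%) and 1 lower (6.76%), and in SRDX 2 were called lower (4.52%).

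RBCS1A was the other gene called in VP16 in the dark. VP16 had 6481, 8696 and 10122 CPM, against 5219, 5610.3 and 6224 CPM in hy5, a log2 difference of 0.55 ± 0.19 (limma adjusted p = 0.0408) with no overlap. The call was lost without hy5 dark replicate 1 (adjusted p = 0.133), hy5 replicate 2 (0.0955), VP16 replicate 2 (0.1) or VP16 replicate 3 (0.193), and when the fit held the compared groups only (0.182). RBCS2B was lower in SRDX and OX. It had 1031 and 815 CPM in SRDX and 1180.0, 689 and 989 CPM in OX, against 1583, 1494 and 1633 CPM in hy5, whose libraries were above all of these. VP16, with 1030.4, 1200.2 and 1448 CPM, was also below hy5 in every library and was not called (-0.37 ± 0.19, adjusted p = 0.177). Its log2 differences from hy5 were -0.77 ± 0.21 in SRDX (adjusted p = 0.02) and -0.75 ± 0.19 in OX (adjusted p = 0.00831). The OX call was lost without OX replicate 2 (adjusted p = 0.0982) and in the sum of the chromosome 5 genes (-0.56, adjusted p = 0.128). The SRDX call was lost without hy5 replicate 1 (0.0513), hy5 replicate 3 (0.0601) or SRDX replicate 2 (0.256). RBCS3B had 1212 and 716 CPM in SRDX, below the 1789, 1534 and 1979 CPM of hy5 (-0.92 ± 0.31, adjusted p = 0.057), and passed without SRDX replicate 1 (0.0324), in a fit of these groups only (0.046) and in the summed cluster. That sum in SRDX was -0.84 ± 0.27 (adjusted p = 0.0477). RBCS1B, with 35.1 and 33.9 CPM in SRDX, against 66.7, 51.6 and 62.6 CPM in hy5, was at the threshold (-0.78 ± 0.26, adjusted p = 0.049) and passed it in none of the 5 fits that left out a library (0.051 to 0.238), nor with edgeR (0.0678) or DESeq2 (0.0764). In these whole-seedling RNA samples fewer cells that express a gene and less RNA per cell cannot be told apart. Seed storage RNA (3 measured genes, of which CRC was called higher) summed to 10.2 to 12.2 CPM in SRDX in the dark, against 1.08 to 1.64 CPM in hy5. The sums were 3.7 to 4.4 CPM in VP16 and 3.2 to 6.58 CPM in OX. Root hair RNA (4 genes, of which EXPA7, LRX1 and COBL9 were called higher) summed to 27.7 to 36.4 CPM in VP16, against 18.7 to 25.8 CPM in hy5. It summed to 13.4 to 15.8 CPM in SRDX, with LRX1 called lower than in hy5, and to 11.3 to 16.7 CPM in OX, with RHD2 called lower, so both lines were below every hy5 library. Of these markers EXPA7 was at 0 in 4 of 32 libraries and COBL9 in 1, and their part in the results was not tested.

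Between wild type and mutant in the dark, limma called 0 of the 5 genes in Col against hy5, where 2.02% of all genes were called, as did edgeR and DESeq2, and 1 gene, RBCS2B, had an unadjusted p below 0.05 (0.0131). RBCS2B had 1057, 903 and 1409 CPM in Col, below the 1583, 1494 and 1633 CPM of hy5. After 1.5 h of light, RCA was lower in Col than in hy5. Col had 2685, 1885 and 1636 CPM, against 4014, 2998 and 2918 CPM in hy5, and every Col library was below every hy5 library. The log2 difference was -0.70 ± 0.16 (limma adjusted p = 0.0036), and 1 of the 5 genes was called lower where 4.05% of all genes were. Seed storage RNA summed to 2.98 to 5.48 CPM in Col at 1.5 h, against 2.03 to 2.67 CPM in hy5, and its part in the result was not tested. The adjusted p was 0.0526 without hy5 1.5 h replicate 1, between 0.00022 and that value over the 6 fits that left out a library, and 0.0528 in a fit of the compared groups only. RBCS1B also stood lower in Col, with 472, 267 and 243 CPM, against 602, 435 and 419 CPM in hy5, which overlap (adjusted p = 0.102).

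Against hy5 at 1.5 h, limma called 0 of the 5 genes in VP16, 0 in OX and 0 in SRDX, where it called 24.9%, 25.2% and 6.5% of all genes. Unadjusted p-values below 0.05 were found for 0 genes in VP16, for RBCS2B in OX (0.0173) and for RBCS1B and RBCS2B in SRDX (0.0318 and 0.00656), and DESeq2 called RBCS2B in OX (adjusted p = 0.0454) and in SRDX (0.0371). RBCS2B had 982 and 875 CPM in SRDX and 1213.5, 984 and 901 CPM in OX, against 1589, 1418 and 1308 CPM in hy5, all below. At 4 h SRDX had 5226 and 5160.4 CPM of RCA, against 8317 and 6269.8 CPM in hy5, both below, and limma called 0 of the 5 genes (17.9% of all genes were called). The RCA difference was -0.48 ± 0.20 (adjusted p = 0.0966, unadjusted 0.0222), DESeq2 called it (0.04), and limma did without hy5 4 h replicate 2 (0.0455).

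**Figure D5:**
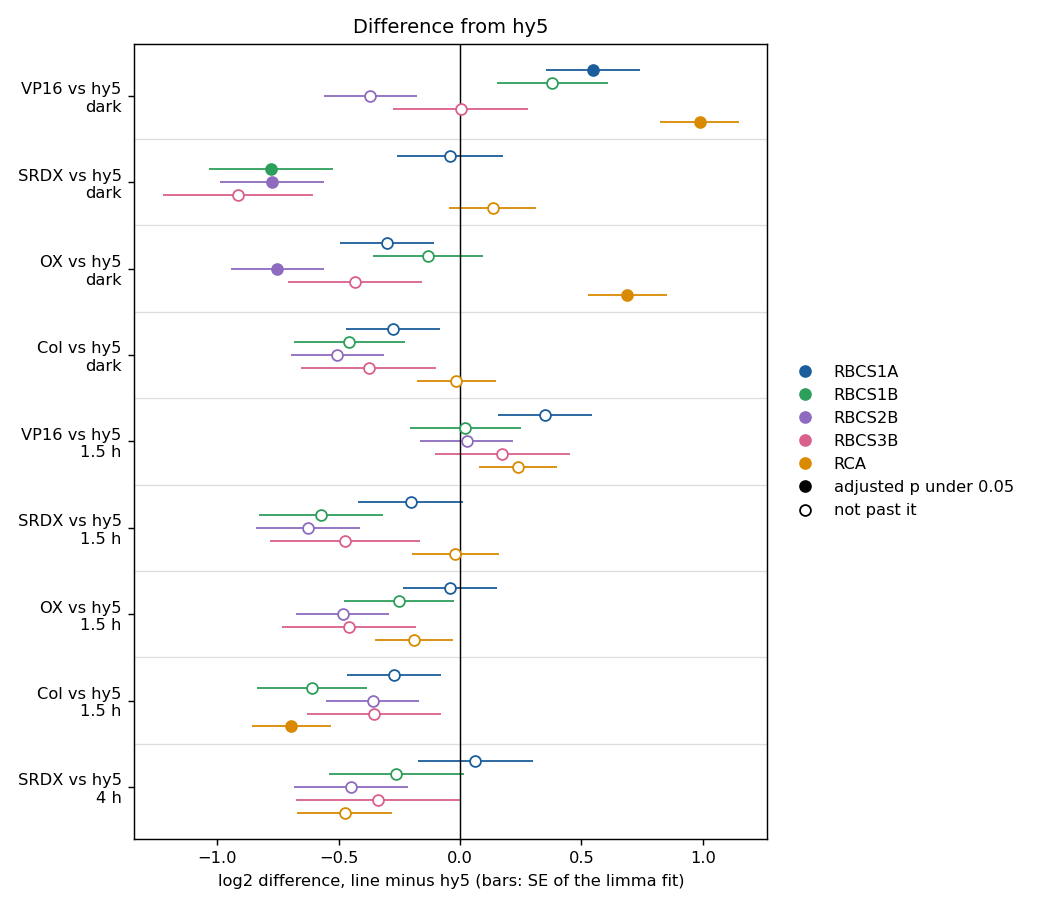
Difference of each line from hy5 at the same light on the log2(CPM + 1) scale for the 5 genes (points, with the SE of the limma fit; filled points passed an adjusted p of 0.05). RCA is 0.99 higher in VP16 and 0.69 higher in OX in the dark and 0.70 lower in Col at 1.5 h.

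Whether the light response itself differed from that of hy5 was tested by the interaction of line and light. RCA rose less in OX than in hy5, with a difference of responses of -0.88 ± 0.23 on the log2 scale (limma adjusted p = 0.00942), and less in VP16, with -0.75 ± 0.23 (adjusted p = 0.035). RCA was the 1 gene of the 5 called in each, where 4.73% and 3.47% of all genes were called lower. The OX value held in all 12 fits that left out a library (adjusted p between 0.00792 and 0.0431). That of VP16 was lost in 7 of them, with adjusted p-values of 0.0606 and 0.0901 without hy5 dark replicates 1 and 2, 0.0841 and 0.0759 without VP16 dark replicates 1 and 3, 0.131 without hy5 1.5 h replicate 1, and 0.0512 and 0.095 without VP16 1.5 h replicates 2 and 3. In both lines the dark level of RCA was above that of hy5, and its level at 1.5 h was not called different. In Col the difference of responses was -0.68 ± 0.23 (adjusted p = 0.104), where 4.01% of all genes were called. It passed without Col 1.5 h replicate 1 (adjusted p = 0.0125) and in DESeq2 (0.0431). In SRDX the RCA value was -0.15 ± 0.25 at 1.5 h (adjusted p = 0.987; 0.127% of all genes called) and -0.61 ± 0.27 at 4 h (0.145; 10.1%). For the 4 RBCS genes, 0 of 20 interactions were called and 0 had an unadjusted p below 0.05, with values from -0.36 to 0.58.

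The fusions were also compared with each other. In the dark RBCS1A was 1.81 times as high in VP16 as in OX, with 6481, 8696 and 10122 CPM in VP16, against 5444, 3821 and 4697 CPM in OX (log2 difference 0.85 ± 0.19, limma adjusted p = 0.00398; no overlap). It was 1 of the 5 genes called there, where 5.7% of all genes were called higher. The call was lost in a fit of these groups only (adjusted p = 0.131). Root hair markers differed too: 4 of 4 were called higher in VP16 than in OX at each time (medians 1.85 in the dark and 1.64 at 1.5 h on the log2 scale), and 3 of 4 in the dark and 4 of 4 at 1.5 h were called higher in VP16 than in SRDX (medians 1.99 and 1.96). Their part in the results was not tested. RCA, raised in both lines over hy5, had 1255, 1048 and 1247 CPM in VP16, against 969.7, 846 and 1077 CPM in OX, which overlap (adjusted p = 0.258). Between VP16 and SRDX in the dark, 3 of the 5 genes were called higher (background 9.73%): RBCS1B by 1.16 ± 0.26 (adjusted p = 0.00116), RBCS3B by 0.92 ± 0.31 (0.0343) and RCA by 0.85 ± 0.18 (0.000738) on the log2 scale. The RBCS3B call was lost without VP16 replicate 2 (0.0994), VP16 replicate 3 (0.13) or SRDX replicate 2 (0.42). It was also lost in a fit of these groups only (0.0571). The summed cluster was not called (0.70, adjusted p = 0.0728), but RBCS1B is too small a part of it for this to test RBCS1B. RBCS1A was also higher in every VP16 library than in SRDX but just missed the limma call (0.59 ± 0.22, adjusted p = 0.0537). It was called there by edgeR (0.0141) and DESeq2 (0.00202). RCA was lower in SRDX than in OX in the dark, 671 and 634 CPM against 969.7, 846 and 1077 CPM (-0.56 ± 0.18, adjusted p = 0.0314; 7.86% of all genes were called lower). That call was lost in 4 of 5 fits, without OX replicate 1 (0.0633), OX replicate 3 (0.107), SRDX replicate 1 (0.0942) or SRDX replicate 2 (0.165), and in a fit of these groups only (0.0677).

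At 1.5 h RBCS2B was called higher in VP16 than in SRDX (0.66 ± 0.21, limma adjusted p = 0.0199; 15.4% of all genes were called higher), and this was lost without VP16 1.5 h replicate 1 (0.0958), VP16 replicate 3 (0.0508), SRDX replicate 1 (0.0573) or SRDX replicate 2 (0.153), and in the summed cluster (0.0759). RBCS1A was higher in every VP16 library than in SRDX and just missed the limma call (0.55 ± 0.22, adjusted p = 0.0542). It was called by edgeR (0.016) and DESeq2 (0.00416). Between VP16 and OX at 1.5 h limma called 0 of the 5 genes, where 21.8% of all genes were called. Same-numbered replicates of these groups deviated together, with low correlations (0.111 to 0.225). A replicate block was fitted as an effect shared by all 12 groups, and so is not a pairing of VP16 and OX alone. With it, limma called RBCS2B (0.51, adjusted p = 0.0176) and RCA (0.43, adjusted p = 0.0284) higher in VP16. Without a block, edgeR (0.045 and 0.0399) and DESeq2 (0.0304 and 0.0238) called both too. Unadjusted p-values below 0.05 were found for RBCS2B, RBCS3B and RCA. For SRDX against OX at 1.5 h limma called 0 of the 5 genes (34.2% of all genes were called), as did edgeR and DESeq2, and 0 had an unadjusted p below 0.05.

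Against Col, VP16 and OX had more RCA at both times, and SRDX was not compared with Col. VP16 had 2.00 times the RCA of Col in the dark and 1.87 times at 1.5 h (log2 differences 1.00 ± 0.16 and 0.93 ± 0.16, limma adjusted p-values of 2.16e-05 and 6.04e-05; no overlap). OX had 1.63 times the RCA of Col in the dark (0.71 ± 0.16, adjusted p = 0.00255; no overlap) and 1.39 times at 1.5 h (0.51 ± 0.16, adjusted p = 0.0254; overlapping libraries). RBCS1A was higher in VP16 than in Col by 0.83 ± 0.19 in the dark (adjusted p = 0.00197) and by 0.62 ± 0.19 at 1.5 h (0.0186). RBCS1B was higher by 0.84 ± 0.23 (0.00698) and 0.63 ± 0.23 (0.0432), with overlapping libraries both times. In VP16 3 of the 5 genes were thus called higher than in Col at each time, where 12.6% of all genes were in the dark and 12.5% at 1.5 h, and in OX 1 was at each time (9.11% and 10.8%). Root hair markers were called higher in VP16 than in Col in 3 of 4 genes in the dark (median 1.26) and 4 of 4 at 1.5 h (median 1.36), and in OX 0 were higher and 2 lower in the dark, and their part was not tested. In a fit of the compared groups only, the RBCS1A calls (adjusted p = 0.0665 and 0.065), the RBCS1B call at 1.5 h (0.0774) and the OX call of RCA at 1.5 h (0.112) were lost. The RBCS1B call at 1.5 h was also lost with edgeR (0.0557) and DESeq2 (0.102). The summed cluster was called at neither time (0.452 in the dark, 0.16 at 1.5 h). RBCS1B is a small part of that sum, which therefore cannot test RBCS1B alone. In the dark the RBCS1B call was lost without Col replicate 2 (0.0534) or VP16 replicate 3 (0.0722). The one at 1.5 h was lost without Col replicate 2 (0.18) or 3 (0.227) or VP16 replicate 1 (0.216) or 3 (0.0766). At 1.5 h the RBCS1A call was lost without Col replicate 2 (0.106), Col replicate 3 (0.0587) or VP16 replicate 1 (0.0807). The RCA call of OX at 1.5 h was lost without Col replicate 2 (0.104), Col replicate 3 (0.173), OX replicate 1 (0.0545) or OX replicate 2 (0.0957).

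Genes listed as accessory to Rubisco, and those of the other enzymes of the Calvin cycle, were read from the same fit. The accessory list held rbcL, assembly factors, chaperonins and the methyltransferase LSMT-L among others, and whether each acts on Rubisco was not examined. Of its 15 measured genes, 9 were called higher at 1.5 h than in the dark in VP16, 7 in SRDX, 11 in OX, 8 in Col and 7 in hy5, and none lower, where 22.4%, 13.9%, 23.6%, 18% and 16.4% of all genes were called higher. Many of all genes were also called lower in each genotype. CPN60B2, a chaperonin subunit, rose by 1.61 ± 0.14 on the log2 scale in OX and 1.22 ± 0.14 in VP16, and RBCX2, an assembly chaperone, by 1.26 ± 0.09 in VP16. CBBY, a phosphatase that removes an inhibitory sugar phosphate, was 76.1 CPM in hy5 at 4 h, against 14.8 CPM in the dark (2.27 ± 0.15, limma adjusted p = 8.42e-14). At 4 h 8 of the 15 were called higher than in the dark and 2 lower in each genotype, where 23.1% of all genes were called higher and 23.6% lower in SRDX, and 24.5% higher and 26.3% lower in hy5. The lower ones were the chaperonin subunits CPN60A1 and CPN60B1, and CPN60A1 had 299 CPM in hy5 at 4 h, against 518 CPM in the dark (-0.79 ± 0.12, adjusted p = 1.46e-06). The list's medians at 1.5 h were 0.67 in VP16, 0.41 in SRDX, 0.60 in OX, 0.49 in Col and 0.37 in hy5, and the medians of all genes lay between -0.02 and 0.01. The plastid gene rbcL, which this poly(A) selection captures only as polyadenylated RNA, was 480 ± 92.5 CPM in OX in the dark, against 166 ± 7.35 CPM in hy5 (SD, n = 3 each; 1.51 ± 0.32, adjusted p = 0.00196). In that comparison 3 of the 15 were called higher and 5 lower (6.72% and 6.76% of all genes), with a median of -0.05.

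Of 19 other Calvin cycle genes, 12 to 14 were called higher at 1.5 h in each genotype, beside the same shares of all genes called higher. In each genotype 0 or 1 were called lower, where many of all genes were. Medians were 0.52 in VP16, 0.48 in SRDX, 0.42 in OX, 0.43 in Col and 0.55 in hy5. CP12-2, a small regulator of the cycle, rose by 2.45 to 2.80 and FBA1, a chloroplast aldolase, by 2.37 to 2.77 on the log2 scale. Against hy5, in VP16 in the dark 10 of 19 were called higher (11.1% of all genes) and 0 lower, led by GAPA2 (1.54 ± 0.13, limma adjusted p = 3.6e-10) and GAPA1 (1.13 ± 0.12, 2.52e-08), subunits of the glyceraldehyde-3-phosphate dehydrogenase of the cycle, and CP12-2 (1.04 ± 0.15, 6.53e-06). In Col at 1.5 h 0 were called higher and 6 lower (4.05% of all genes), led by GAPA2 (-0.69 ± 0.13, 0.000252), GAPB (-0.63 ± 0.12, 0.000451) and GAPA1 (-0.58 ± 0.12, 0.000791), and in SRDX at 4 h 0 were called higher and 8 lower (9.65% of all genes), led by FBA2 (-0.73 ± 0.21, 0.0137). The interactions of OX and VP16 with light were called lower for GAPA2 (-1.05 ± 0.18 and -1.15 ± 0.18) and GAPA1 (-0.78 ± 0.17 and -0.73 ± 0.17), and in OX also for PRK. These were 3 of 19 genes in OX and 2 in VP16, where 4.73% and 3.47% of all genes were called lower. Col also had 2 of 19 called lower (4.01% of all genes in either direction). SRDX had 0 called at 1.5 h (0.127%), and 2 lower and 1 higher at 4 h (10.1%). Of the 15 accessory genes, 0 were called by limma in Col against hy5 at 1.5 h (9.15% of all genes in either direction) and 0 had an unadjusted p below 0.05, with a median of -0.04.

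Over the 12 group means of log2(CPM + 1), which share their libraries and a common light contrast, the profile of RCA was most like that of RBCS1B (Pearson r = 0.96) and least like that of RBCS2B (0.48). RBCS1A correlated with RBCS2B at 0.50, and RBCS2B with RBCS3B, its neighbour on chromosome 5, at 0.81. RBCS2B and RBCS3B were highest in the same library in 12 of 12 groups, and RBCS1A and RBCS2B in 10. Among 15018 genes with a mean of at least 5 CPM, the profiles most like the mean of the 5 genes were those of AT2G33180 (r = 0.991), NEET (0.988), PnsL1 (0.988), a subunit of the chloroplast NDH complex, and the Calvin cycle genes GAPB (0.986) and FBA2 (0.984). For RBCS1B the nearest were LHCB2.1 (0.991), a light-harvesting protein of photosystem II, PHT2;1 (0.991), a plastid phosphate transporter, and FBA1 (0.990). For RCA they were CYP38 (0.995), PnsB1 (0.995) and CRB (0.994), all chloroplast proteins. RBCS3B was nearest to NEET (0.966), AT5G21060 (0.959) and AT4G24930 (0.957). RBCS1A had no profile closer than AT2G48130 (0.933), TROL (0.912) and AT5G43180 (0.901), and RBCS2B none closer than AT2G48020 (0.889), AT5G58530 (0.889) and PLDP2 (0.866).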

How the data were processed

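Poly(A) RNA of 32 seedling samples was sequenced from stranded TruSeq libraries, per the labels' protocols. Tools listed in the submitters' processing notes, without settings, were TopHat2 (version 2.0.11), Bowtie2 (2.2.2.0), HTSeq (0.6.0), edgeR (3.16.5), SAMtools (0.1.19.0) and CASAVA (1.8.2), and the build is TAIR10. The authors deposited expression signal values that their table names CPM, for 19685 genes. Columns summed to 925942 to 1066829, and each value was a whole multiple, within 0.01, of what 1 read is worth in that library (0.0457 to 0.131 CPM), which gave back reads. The authors also deposited log2 fold changes against hy5, per the file headers, and all 45 of those for the 5 genes had the sign of the values given here, with a largest difference of 0.078.

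Values were tested as log2(CPM + 1) with limma 3.58.1 in R 4.3.3 (mean-variance trend, all 12 groups in 1 fit), for 33 comparisons, with Benjamini-Hochberg adjustment over all 19685 genes within each comparison and calls at an adjusted p below 0.05. The pseudocount of 1 slightly understates changes of low genes. A filter of 1 CPM in 2 libraries removed 0 genes. Fold values are ratios of mean CPM, and errors of log2 differences are SE of the fit. edgeR 4.0.16 and DESeq2 1.42.0 on the recovered reads, other filters, scalings and fits, and leaving out each library were alternatives. The script was tested on simulated data. The members and gene lists were chosen with earlier results of these data known. All 5 genes were named, and of each list up to 3 called genes with the largest absolute log2 difference in a comparison. Likeness was ranked by Pearson correlation over the 12 group means. Sequences came from RefSeq's TAIR10.1. Samples with the same replicate number deviated together (3 pairs, every correlation above 0.1) for Col and hy5 in the dark (0.172 to 0.306) and for VP16 and OX at 1.5 h (0.111 to 0.225), and elsewhere, comparisons with only 2 pairs included, a number was taken only to name a sample.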

Additional observations from a re-analysis of the deposited data

Results flagged for a closer look

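The light response of RCA differed from that of hy5 in OX and in VP16 by a test of the difference itself. The response at 1.5 h in OX minus that in hy5 was -0.88 ± 0.23 on the log2 scale (limma adjusted p = 0.00942), and the response in VP16 minus that in hy5 was -0.748 ± 0.227 (adjusted p = 0.035). The first passed in 12 of 12 fits that left out a library and the second in 5 of 12. Groups of 2 or 3 libraries are too small for a check of single outlying libraries.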

How the results depend on the processing

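Of 46 differences called for the 5 genes, 28 were called in every fit that left out a library and 18 were lost in at least 1. Called differences that kept their call numbered 46 with a pseudocount of 0.25, 46 with no filter, 45 with a mean of at least 5 CPM, 37 with the compared groups only, 45 with median-of-ratios scaling, 44 with edgeR, 44 with DESeq2 and 20 with a fold of at least 2; of 21 for single chromosome 5 genes, 9 held in their sum. None changed sign. The cause of these changes was not tested.

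Counts of the 5 genes called moved by over 1.5 times as follows. With the compared groups only they were 4 for 4 h against 1.5 h in SRDX, 3 for VP16 against SRDX at 1.5 h, 2 for 4 h against 1.5 h in hy5 and for SRDX against hy5 at 1.5 h, 1 for OX against hy5 at 1.5 h, VP16 against Col at 1.5 h and VP16 against hy5 in the dark, and 0 for Col against hy5 and OX against Col at 1.5 h and for SRDX and VP16 against OX in the dark. DESeq2 gave 3 for VP16 against OX at 1.5 h, 2 for VP16 against SRDX at 1.5 h and 4 h against 1.5 h in hy5, and 1 for OX and SRDX against hy5 at 1.5 h, SRDX against hy5 at 4 h and in the dark, and the Col interaction. edgeR gave 2 for VP16 against OX and against SRDX at 1.5 h and 1 for SRDX against hy5 in the dark. A mean of at least 5 CPM gave 2 for VP16 against SRDX and 1 for VP16 against OX at 1.5 h, and 1 for SRDX against hy5 in the dark, as did the other scaling. A fold of at least 2 left 1 for VP16 against Col and against SRDX in the dark, and 0 for 4 h against 1.5 h in SRDX, for Col against hy5, OX and VP16 against Col and VP16 against SRDX at 1.5 h, for OX against Col, SRDX and VP16 against OX, and OX, SRDX and VP16 against hy5 in the dark, and for the interactions of OX and VP16.

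The replicate block was fitted over all 32 libraries and did not pair only the compared groups. With the replicate number as a block, counts were 3 for 4 h against 1.5 h in hy5, 2 for Col against hy5, VP16 against OX and VP16 against SRDX at 1.5 h and for SRDX against OX in the dark, and 1 for OX and SRDX against hy5 at 1.5 h. Of these, VP16 against OX at 1.5 h had 3 pairs that all correlated above 0.1. SRDX against OX in the dark (0.169 to 0.268) and 4 h against 1.5 h in hy5 (0.111 to 0.145) also did so, but with 2 pairs, too few to be taken as pairing, and the block changed no call of Col against hy5 in the dark.

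Leaving out single libraries gave counts of 2 to 4 for 1.5 h against dark in Col, 1 to 2 for OX and VP16 against hy5 in the dark, 1 to 3 for VP16 against Col at 1.5 h, and 0 to 1 for 4 h against 1.5 h in SRDX, OX against hy5 at 1.5 h, SRDX against hy5 at 4 h and the interactions of Col and VP16. It gave 0 to 2 for SRDX against hy5 and against OX in the dark and for Col against hy5, OX against Col, and VP16 against OX and against SRDX at 1.5 h. The mean log2 ratio of RBCS3B to RBCS1A was 0.266 to 0.361 higher in light over these fits.

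Groups held 2 or 3 libraries, all 5 genes had at least 307 reads in every library, and the share of reads that fit more than 1 chromosome 5 gene was not measured.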
